A study of Mus musculus with 10 samples.

Results

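The intermediate filament genes Nes, Vim, Gfap, Ina, Nefl, Nefm and Nefh were chosen by name, and 6 of these 7 had a row among the 6147 genes of the deposited table. Nefh was not analysed here. RNA came from the neocortex, the layered outer part of the forebrain, of wild-type CD1 mice, an outbred strain, as embryos of E12.5 and E14, then of E15.5 and of E17 (E for embryonic day), and at birth (P0). Each of the 5 stages had 2 libraries of polyadenylated RNA, described as biological duplicates, and no stage carried a transgene or treatment. The labels do not say how many animals went into a library, nor their litter or sex, so the p-values measure the spread between these libraries. Levels are TPM, a measure in which reads are divided by gene length and scaled to a fixed total, so that genes can be compared within a library. The gene lengths used are not given. The order, ratios, sums and shares of different genes below therefore depend on lengths that are unknown here.

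Intermediate filaments are rope-like polymers that give cells mechanical strength, and the subunits a cell makes depend on its type and age. Neural progenitors of the developing cortex, the radial glia, are known for nestin (Nes) and vimentin (Vim). Young neurons replace them with alpha-internexin (Ina), followed by the light, medium and heavy neurofilament subunits (Nefl, Nefm and Nefh), which fill axons. Gfap encodes glial fibrillary acidic protein, the classical filament of astrocytes.

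The genes were placed in GRCm38 with GENCODE release M21. Nes lies on the forward strand of chromosome 3 (87971078 to 87980451, 4 exons), and Vim on the forward strand of chromosome 2 (13573927 to 13582826, 9 exons). Gfap lies on the reverse strand of chromosome 11 (102887336 to 102900912, 9 exons), and Ina on the forward strand of chromosome 19 (47014698 to 47025327, 3 exons). Nefl (68083863 to 68089095, forward, 4 exons) and Nefm (68082590 to 68124846, reverse) are neighbours on chromosome 14.

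Nefl lies within the annotated span of Nefm, on the opposite strand. A long transcript of Nefm shares 1108 exonic bases with Nefl, which is 32.8% of the exonic bases of Nefl and 19.2% of those of Nefm. Ina shares 456 exonic bases, 14.1% of its own, with Nt5c2 on the opposite strand. The library kit marks strand, but the strand setting of the counting is not stated there or in the processing notes. Without it, reads from the shared bases of a pair cannot be told apart, and the effect on the levels was not tested.

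Promoters are shown because, in the values given after them, Nes and Vim fell together while Ina and Gfap rose. RefSeq promoters were matched by symbol for 4 of the 6 genes, Nes, Vim, Gfap and Ina, and not for Nefl and Nefm. The window is the 250 bases before the RefSeq start (GRCm38.p6), printed from 5′ to 3′ on the strand of the gene. They cover chr3:87970843-87971092 for Nes, chr2:13574061-13574310 for Vim, chr11:102897201-102897450 (reverse strand) for Gfap and chr19:47014431-47014680 for Ina. The Vim window lies within the first exon of a longer GENCODE transcript, so only the stretch around its TATA box is printed for Vim (chr2:13574267-13574296, 44 to 15 bases before the RefSeq start). The Gfap window lies within the annotated span of Gfap and overlaps no exon. The end of the Nes window runs past the GENCODE start of Nes (87971078). The Ina window lies within the annotated span of Nt5c2 (46883317 to 47015153) on the opposite strand. Capitals mark matches, on either strand, to 6 motifs. These were the TATA box with the letters TATAAA, the box named for its letters CCAAT, the GC box written as GGGCGG, the E box that reads CAGCTG, a STAT site spelled TTCNNNGAA and the palindromic site of NFI factors, and no match overlapped another.
Nes: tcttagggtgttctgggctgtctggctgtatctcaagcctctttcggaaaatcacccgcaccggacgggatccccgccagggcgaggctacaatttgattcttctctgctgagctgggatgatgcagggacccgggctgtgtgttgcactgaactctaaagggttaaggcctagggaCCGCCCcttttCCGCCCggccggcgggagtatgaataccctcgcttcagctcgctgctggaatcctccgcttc
Vim: tcctaacagtgtTATAAAagcagcgccctt
Gfap: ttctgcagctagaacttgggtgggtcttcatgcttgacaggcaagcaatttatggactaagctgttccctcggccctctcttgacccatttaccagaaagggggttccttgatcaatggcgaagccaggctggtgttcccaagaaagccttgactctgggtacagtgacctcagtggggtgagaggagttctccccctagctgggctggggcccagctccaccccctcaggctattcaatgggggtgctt
Ina: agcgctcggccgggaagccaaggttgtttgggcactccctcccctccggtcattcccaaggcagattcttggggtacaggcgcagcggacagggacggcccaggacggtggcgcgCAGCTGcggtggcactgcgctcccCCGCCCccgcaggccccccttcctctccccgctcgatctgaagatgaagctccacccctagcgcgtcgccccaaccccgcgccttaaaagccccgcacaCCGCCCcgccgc

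The Nes window held GGGCGG on the opposite strand at 2 places, from 73 to 68 and from 62 to 57 bases before the start, and none of the other motifs. Vim held TATAAA from 32 to 27 bases before its start and CCAAT at 2 places, 1 on each strand. Ina held GGGCGG at 2 places on the opposite strand and CAGCTG once. Gfap held no match in this window. Of 32851 promoter windows of the same length, 12.4% held TATAAA, 33.8% CCAAT, 32.7% GGGCGG, 13.0% CAGCTG, 7.02% TTCNNNGAA and 0.0365% the NFI site. The share of G and C was 58.8% for Nes, 58.4% for Vim, 55.6% for Gfap and 70.8% for Ina, with 15, 8, 2 and 25 CG pairs, against medians of 52.4% and 6 over all windows. Matches are descriptions of the sequence and not binding sites.

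A filter on the mean over the 10 libraries (1 TPM or more) left 6048 genes for testing. Pearson's r between the log2(TPM + 1) values of a stage's 2 libraries, taken across genes, which are not independent replicates, was 0.989 to 0.999. The E17 libraries were the farthest apart, with an SD of the difference between replicates of 0.285 on the log2 scale against 0.088 to 0.176 at the other stages. Where a call or a direction at E17 turned without 1 of its libraries, that value is given. All 6 filament genes passed the filter. Gfap passed it through P0 alone, since its other stages lay near or under 2 TPM. All values are from whole tissue, in which a smaller share of cells of a type and less RNA per cell cannot be told apart.

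In the order of levels, Vim was the most abundant filament gene at E12.5, E14 and E15.5, and Ina at E17 and P0. Nes stood in second place at E12.5, above Ina, and in last place at P0, below Gfap. Neighbours in this order had libraries that did not overlap, except Nefm and Nefl at E15.5, Nefl and Nes at E17, and Nefm and Gfap at P0.

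**Figure D1:**
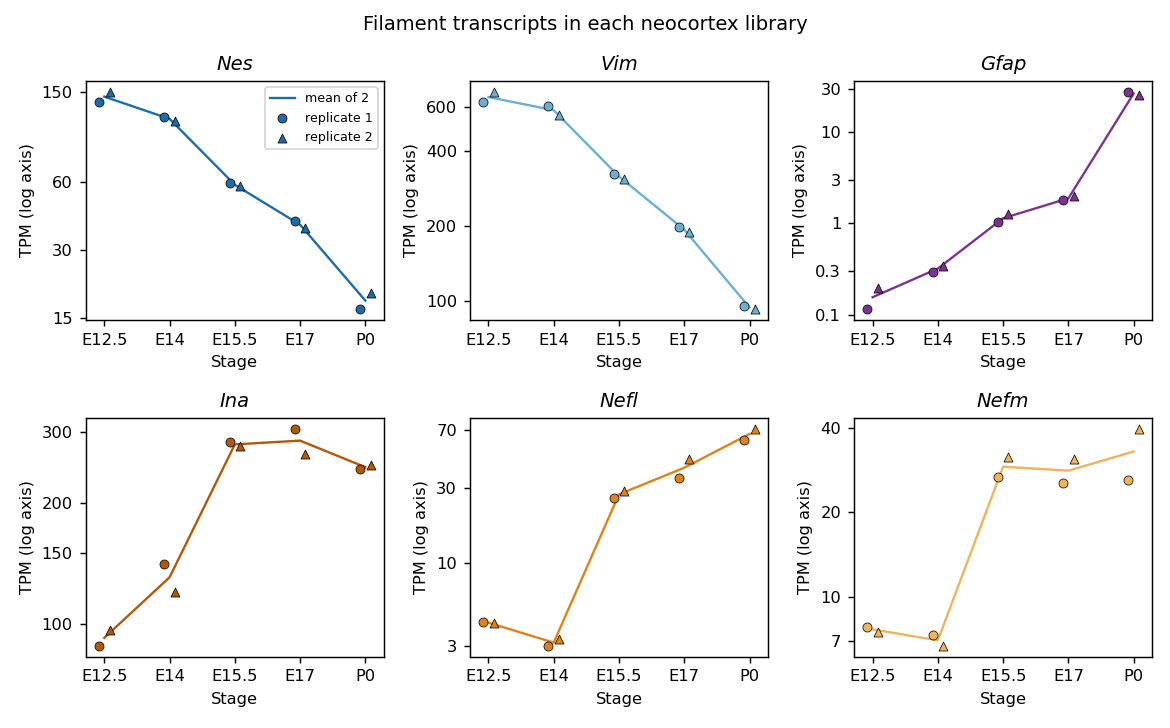
TPM of each filament gene (log axis, a separate range in each panel) in the 10 neocortex libraries by stage; circles are replicate 1, triangles replicate 2, and lines join the means of 2 libraries. Nes and Vim are lowest at P0, Gfap is highest at P0, and Nefl and Nefm jump between E14 and E15.5.

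Nestin and vimentin, the progenitor filaments, fell together by about the same factor. Nestin is a large subunit that needs a partner such as vimentin to form filaments. Nes stood at 136 and 150.1 TPM at E12.5, 117 and 112 at E14, 59.2 and 57.5 at E15.5, 40.3 and 37.4 at E17, and 16.5 and 19.5 at P0. No library of a later stage reached any library of an earlier one. From E12.5 to P0 the mean of Nes was 7.96-fold lower, a log2 change of -2.93 (SE 0.10, adjusted p 1.74e-10 in limma). Changes and SEs here and below are on the log2(TPM + 1) scale, later minus earlier stage.

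Vim, the widely expressed mesenchymal and glial filament, stood at 624 and 687 TPM at E12.5, 604 and 557 at E14, 321 and 309 at E15.5, 197 and 189 at E17, and 95.9 and 92.7 at P0. Its stages did not overlap either. The mean at P0 was 6.95-fold lower than at E12.5, a log2 change of -2.78 (SE 0.08, adjusted p 6.89e-11). Among the 6147 listed genes Vim went from rank 166 by mean TPM at E12.5 to rank 1533 at P0, and Nes from rank 1077 to rank 4366.

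The falls of both genes were called at 3 of the 4 steps between neighbouring stages. At the first step neither passed the threshold, with log2 changes of -0.32 for Nes (SE 0.10, adjusted p 0.0606) and -0.17 for Vim (SE 0.08, adjusted p 0.194). Nes did pass there with a pseudocount of 10 TPM (adjusted p 0.0348) and with quantile normalization (0.0380), but not with median-of-ratios scaling (0.0657). With array weights Nes (adjusted p 0.000152) and Vim (0.0150) both passed, as they did with only 4 libraries in the fit. From E14 to E15.5 the changes were -0.96 for Nes (adjusted p 9.33e-06) and -0.88 for Vim (adjusted p 4.19e-06). From E15.5 to E17 they were -0.57 (adjusted p 0.00208) and -0.70 (adjusted p 0.000273), and from E17 to P0 -1.08 (adjusted p 1.74e-05) and -1.03 (adjusted p 8.30e-06). Both genes were still called at the 2 later steps without E17 replicate 1 and without E17 replicate 2. With only the 4 libraries of E15.5 and E17 in the fit, the call of Nes at that step was lost (adjusted p 0.0535).

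Within a library the ratio of Vim to Nes hardly moved while both fell. It was 4.59 and 4.58 at E12.5, 5.18 and 4.98 at E14, 5.43 and 5.38 at E15.5, 4.89 and 5.04 at E17, and 5.83 and 4.76 at P0. The 2 libraries of P0 spanned almost the whole range of the other stages. The summed TPM of Nes and Vim was 798 ± 55.0 (SD, n = 2) for E12.5 and 694 ± 36.8 for E14. It was 374 ± 9.53 for E15.5, 226 and 238 in the libraries of E17, and 112 ± 0.133 for P0.

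Tissue around the cortex also holds Vim. A list of 10 meningeal and fibroblast genes, all in the table and none at 0 in a stage, summed to between 409 and 423 TPM at E12.5 and between 301 and 319 TPM at E14. At E15.5 the sum was 41.6 to 42.6 TPM, at E17 43.4 to 47.2 TPM and at P0 36.1 to 39.5 TPM. Col3a1, a fibrillar collagen of connective tissue, fell from 27.9 TPM at E14 to 0.394 TPM at E15.5. At the same step Ttr, the transthyretin of choroid plexus, fell from 1435 to 3.78 TPM, and Hbb-y, an embryonic globin, from 1907 to 8.47 TPM. Clic6 of choroid plexus and the red cell genes Hbb-bh1 and Slc4a1 fell as well, and Cdh5, the endothelial cadherin, from 9.52 to 1.26 TPM. The part of these cells in the falls of Vim and Nes between E14 and E15.5 was not tested.

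A comparison of E15.5 with P0, added after the meningeal values were seen, covers stages at which that list was low throughout. Of these 10 genes, 3 fell and 7 did not pass the threshold, with a median log2 change of 0.02. Of all genes tested 30.7% fell, with a median of -0.09, so this count is near that of all genes. Col1a1 (0.453 TPM), Lum (0.281 TPM), Col1a2 (0.263 TPM) and Col6a1 (0.0559 TPM) were, like Col3a1, so low at E15.5 that little room was left to fall. Between the same stages Nes fell by 1.65 (SE 0.10, adjusted p 2.05e-07) and Vim fell by 1.73 (SE 0.08, adjusted p 3.70e-08), which is 3.25-fold and 3.34-fold in mean TPM. Nefl rose by 1.24 (SE 0.14, adjusted p 2.33e-05) over this interval. For Gfap the change was 3.69 (SE 0.11, adjusted p 9.23e-09), but that gene was tested only because it was high at P0.

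**Figure D2:**
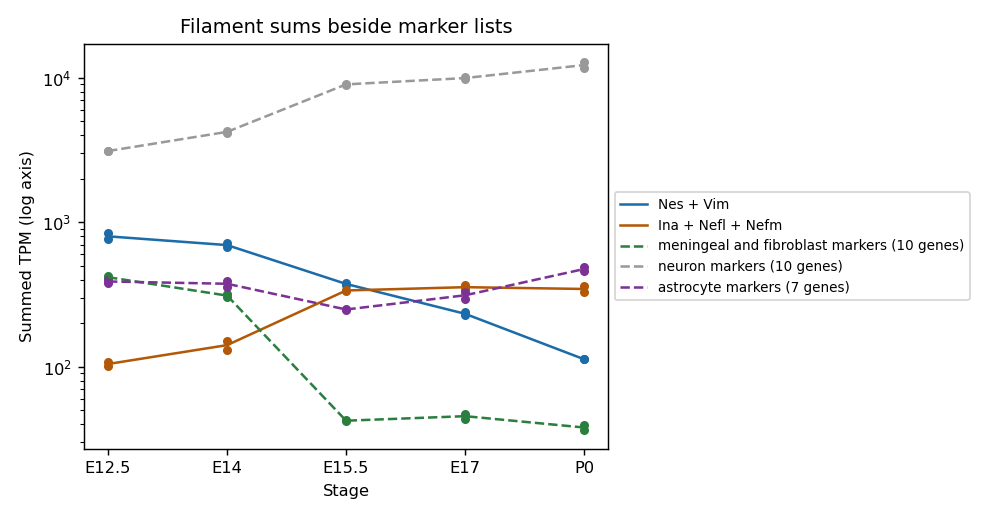
Summed TPM (log axis) by stage of Nes and Vim, of Ina, Nefl and Nefm, and of 3 marker lists; each point is a library, and lines join the means of 2. The meningeal and fibroblast sum drops between E14 and E15.5 and then stays between 36.1 and 47.2 TPM, while the sum of Nes and Vim goes on falling to 112 TPM.

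Alpha-internexin was the most abundant neuronal subunit at every stage. It can form filaments on its own and is the first of the neuronal subunits that postmitotic neurons make. Ina stood at 88.0 and 96.5 TPM at E12.5, 141 and 120.0 at E14, 283 and 277 at E15.5, 307 and 266 at E17, and 243 and 249 at P0. The first 3 stages were separate from one another, and E17 spanned both libraries of E15.5. From E12.5 to P0 the mean rose 2.66-fold, a log2 change of 1.41 (SE 0.10, adjusted p 8.68e-08).

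Ina rose by 0.49 from E12.5 to E14 (SE 0.10, adjusted p 0.0110) and by 1.10 from E14 to E15.5 (SE 0.10, adjusted p 3.75e-06). The earlier call was lost without E12.5 replicate 1 (adjusted p 0.137), without E12.5 replicate 2 (0.0600) and without E14 replicate 1 (0.137). After E15.5 no step passed the threshold: the change was 0.03 from E15.5 to E17 (SE 0.10, adjusted p 0.856) and -0.22 from E17 to P0 (SE 0.10, adjusted p 0.0934). The latter was -0.32 and passed without E17 replicate 2 (adjusted p 0.00685), and was -0.11 without E17 replicate 1 (adjusted p 0.347).

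The light neurofilament subunit, the core of the neurofilament, had the largest relative rise of the 3 neuronal genes. Nefl stood at 4.25 and 4.18 TPM at E12.5, 3.01 and 3.30 at E14, 25.9 and 28.9 at E15.5, 34.9 and 45.8 at E17, and 60.8 and 71.4 at P0. From E14 to E15.5 its mean rose 8.69-fold, a log2 change of 2.77 (SE 0.14, adjusted p 6.50e-08), which was in place 3 of the rises of all 6048 genes tested at that step. Before it, E14 against E12.5 gave -0.33, which did not pass (SE 0.14, adjusted p 0.162).

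Nefl went on rising after E15.5. The change was 0.53 from E15.5 to E17 (SE 0.14, adjusted p 0.0173) and 0.71 from E17 to P0 (SE 0.14, adjusted p 0.00227). From E15.5 to E17 the call was lost without E15.5 replicate 1 (adjusted p 0.143), without E15.5 replicate 2 (0.0646), without the E12.5 and E14 libraries (0.0560), with array weights (0.0514) and with only 4 libraries in the fit (0.124). Leaving out E17 replicate 1 gave 0.72, and leaving out E17 replicate 2 gave 0.34, and both passed. From E17 to P0 Nefl was at 0.52 without E17 replicate 1 and at 0.90 without replicate 2, and both passed. Over the whole span the mean rose 15.7-fold, with a log2 change of 3.68 (SE 0.14, adjusted p 4.98e-10).

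The medium subunit Nefm, whose long tail projects from the filament, rose at the same step as Nefl and then levelled off. It stood at 7.81 and 7.54 TPM at E12.5, 7.33 and 6.70 at E14, 26.7 and 31.4 at E15.5, 25.4 and 30.9 at E17, and 26.1 and 39.7 at P0. From E14 to E15.5 the mean rose 4.14-fold, a log2 change of 1.90 (SE 0.17, adjusted p 4.85e-06), in place 29 of all rises. The other steps did not pass, with a change of -0.12 (SE 0.17, adjusted p 0.728) before it, -0.05 (adjusted p 0.866) from E15.5 to E17 and 0.20 (adjusted p 0.385) from E17 to P0.

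The E15.5, E17 and P0 libraries of Nefm overlapped, and P0 replicate 2 was the highest of all. Without P0 replicate 1 the change from E17 to P0 was 0.49 and passed (adjusted p 0.0459), and without P0 replicate 2 it was -0.10 (adjusted p 0.645). From E12.5 to P0 the mean rose 4.28-fold, a log2 change of 1.94 (SE 0.17, adjusted p 8.80e-07). A pseudocount of 10 TPM in place of 1 TPM lowered the changes of Nefl and Nefm from E14 to E15.5 to 1.51 and 1.20, and those from E12.5 to P0 to 2.42 and 1.26, all still called.

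**Figure D3:**
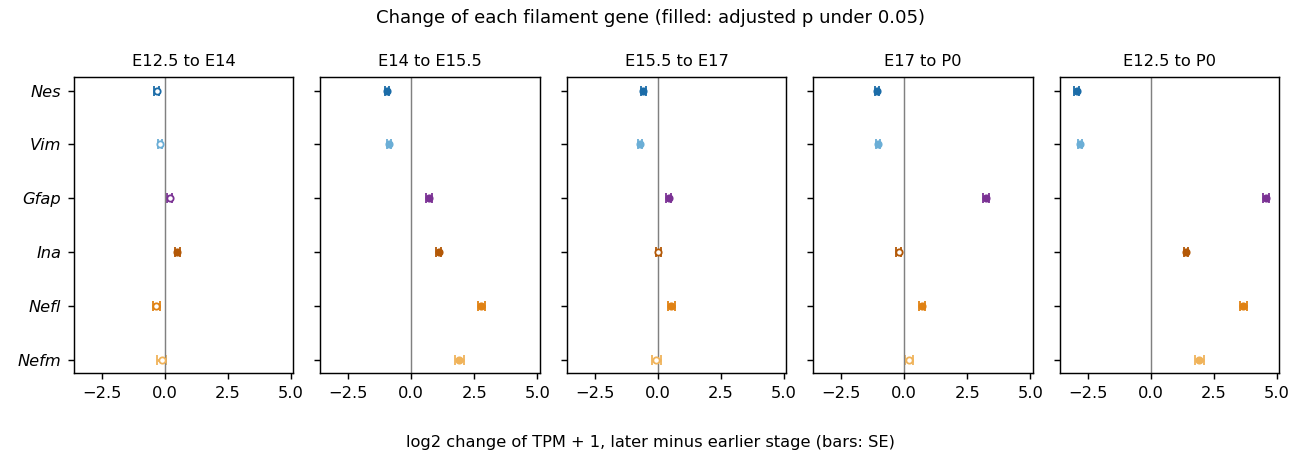
Log2 change of TPM + 1 with SE (later minus earlier stage, x axis) of the 6 filament genes in the 4 neighbouring steps and from E12.5 to P0; filled points had an adjusted p under 0.05 in limma. All 6 are filled from E14 to E15.5 and from E12.5 to P0, and only Ina from E12.5 to E14.

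The neuronal subunits therefore changed their proportions. The ratio of Nefl to Nefm was 0.544 and 0.555 at E12.5, 0.410 and 0.493 at E14, 0.972 and 0.919 at E15.5, 1.38 and 1.48 at E17, and 2.33 and 1.80 at P0. Nefm was the more abundant of the pair in each library up to E15.5, and Nefl in each E17 and P0 library. The ratio of Ina to Nefl was 20.7 and 23.1 at E12.5 and higher at E14, at 47.0 and 36.3. It was 10.9 and 9.59 at E15.5, 8.79 and 5.80 at E17, and 3.99 and 3.48 at P0. As a share of the summed TPM of Ina, Nefl and Nefm, Ina held 88.6% ± 0.863 at E12.5 (SD, n = 2), 92.7% ± 0.617 at E14 and 71.4% ± 3.19 at P0. Nefl held 4.06% ± 0.272, 2.26% ± 0.393 and 19.1% ± 0.994 at the same 3 stages.

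The sum of the 3 neuronal genes was 104 ± 5.71 TPM (SD, n = 2) for E12.5 and 141 ± 15.1 for E14. It reached 337 ± 1.07 for E15.5, 355 ± 17.3 for E17 and 345 ± 21.5 for P0. The range of P0 overlapped those of E15.5 and E17, while both E15.5 libraries lay below both of E17. Under median-of-ratios scaling the sums of Ina, Nefl and Nefm were 345 for E15.5, 361 for E17 and 379 for P0. These ratios and sums were chosen with earlier results known and are given without a test.

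**Figure D4:**
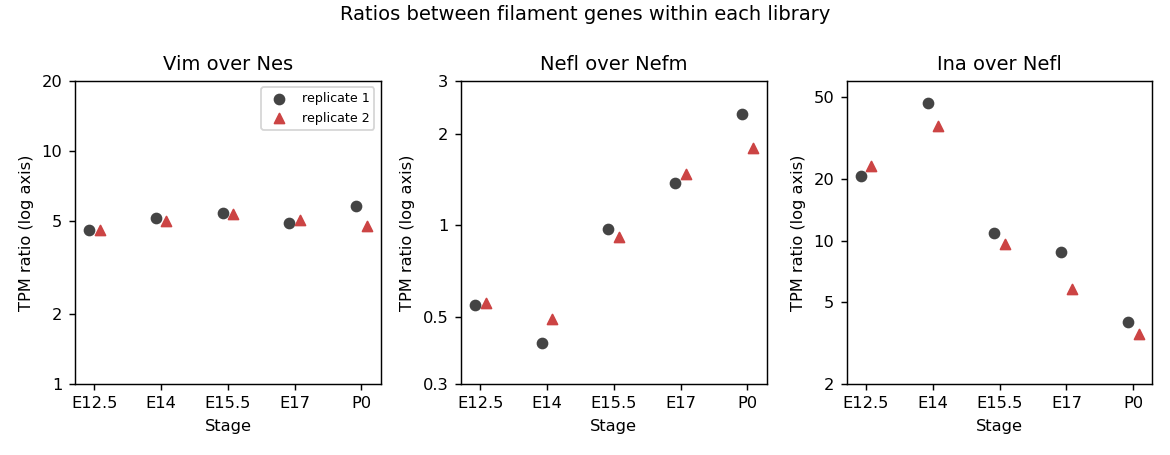
Ratios of TPM between filament genes within each library (log axes) by stage; circles are replicate 1 and triangles replicate 2. Vim over Nes stays between 4.58 and 5.83, Nefl over Nefm is 0.544 and 0.555 at E12.5, lowest at E14 and 2.33 and 1.80 at P0, and Ina over Nefl is 20.7 and 23.1 at E12.5, highest at E14 and 3.99 and 3.48 at P0.

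Gfap stayed under 2 TPM until E17 and then had the largest rise of all genes tested. It stood at 0.114 and 0.195 TPM at E12.5, 0.296 and 0.343 at E14, 1.03 and 1.25 at E15.5, 1.79 and 1.98 at E17, and 27.7 and 25.5 at P0. Every stage was above the one before it in both libraries. From E17 to P0 the mean rose 14.1-fold, a log2 change of 3.26 (SE 0.11, adjusted p 4.81e-08), in place 1 of the rises of the 6048 genes tested. With a pseudocount of 10 TPM the change was 1.62 and with 0.1 TPM 3.75, and both were called. Because the gene passed the filter through P0 alone, a difference between P0 and any earlier stage was built into its being tested.

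The earlier steps of Gfap rest on values near 1 TPM. At the first step the change was 0.19 (SE 0.11, adjusted p 0.324). From E14 to E15.5 it was 0.70 (SE 0.11, adjusted p 0.000374) and from E15.5 to E17 0.43 (SE 0.11, adjusted p 0.0193). The last of these did not pass under 7 of 21 alternatives, among them those without E15.5 replicate 1 (adjusted p 0.165), without E15.5 replicate 2 (0.0639) and without the E12.5 and E14 libraries (0.0771). The change from E14 to E15.5 passed under all 20 run, at values from 0.11 with a pseudocount of 10 TPM to 1.56 with 0.1 TPM. From E12.5 to P0, a comparison under the same limit, the log2 change was 4.58 (SE 0.11, adjusted p 3.22e-11), between 1.85 with a pseudocount of 10 TPM and 6.73 with 0.1 TPM.

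Of 7 astrocyte markers in the table, 6 rose and 1 fell from E12.5 to P0 (27.1% and 51% of all genes), with a median log2 change of 1.10 against -0.27 for all genes. Slc6a11, a GABA transporter, rose by 4.58 (adjusted p 1.76e-10) and Aldh1l1, a folate enzyme that marks astrocytes, by 3.55 (adjusted p 2.58e-10). Aldoc, a glycolytic aldolase, fell by 1.09 (adjusted p 5.57e-07). The summed level of the 7 genes was lowest at E15.5, at 248 to 249 TPM, and highest at P0, at 459.9 to 488 TPM.

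Read as a whole, the make-up of the 6 genes went from mostly Nes and Vim to mostly Ina, Nefl and Nefm. Tissue around the cortex also holds Vim, and its part in these shares was not tested. Nes and Vim held 88.4% ± 0.140 of the summed TPM for E12.5 (SD, n = 2) and 83.1% ± 0.758 for E14, then 52.5% ± 0.727 for E15.5, 39.4% ± 0.325 for E17 and 23.2% ± 0.977 for P0. Ina, Nefl and Nefm held 11.5% ± 0.145, 16.8% ± 0.765, 47.3% ± 0.702, 60.3% ± 0.362 and 71.3% ± 1.53 at the same stages. Gfap held 0.321% ± 0.0366 at E17 and 5.51% ± 0.551 at P0. The 6 genes summed to 903 ± 60.8 TPM for E12.5 and to 484 ± 19.8 TPM for P0. Ina overtook Vim between E15.5, at 0.882 and 0.895 of its level, and E17, at 1.56 and 1.41.

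**Figure D5:**
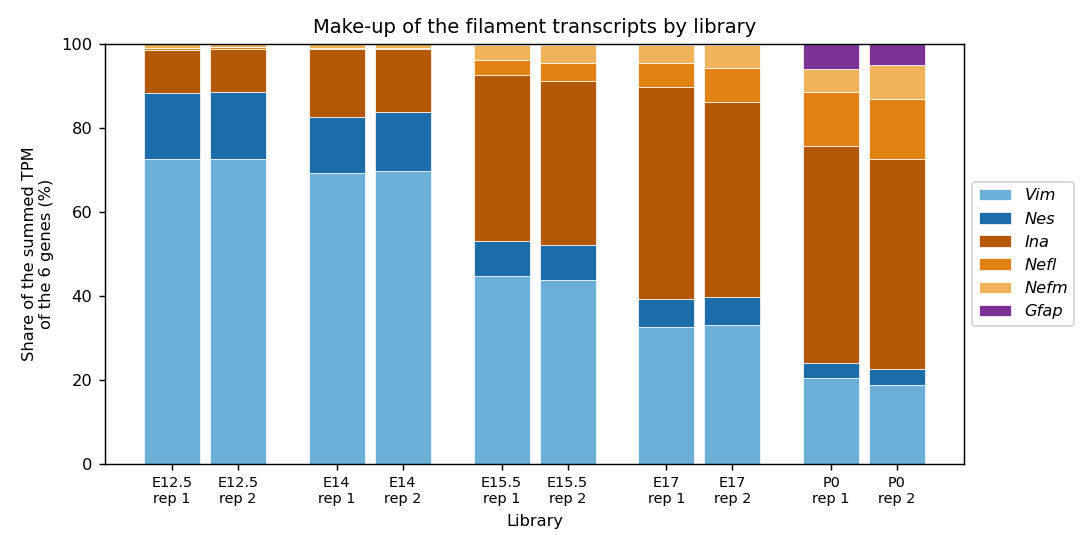
Share of each gene in the summed TPM of the 6 filament genes (y axis, percent) in each of the 10 libraries. Nes and Vim together go from 88.4% at E12.5 to 23.2% at P0, and Gfap is visible only in the P0 libraries.

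All 6 genes passed the F test over the 5 stages, where 82.9% of all genes tested did. From E12.5 to E14 only Ina was called (1 of 6, against 8.73% of all genes, 3.95% higher and 4.78% lower). From E14 to E15.5 all 6 were called, 4 higher and 2 lower, against 51.7% of all genes, 18.4% higher and 33.3% lower. From E15.5 to E17 the count was 4 of 6 (25% of all genes, 14.4% higher and 10.6% lower) and from E17 to P0 again 4 of 6 (41.7%, 12.9% higher and 28.8% lower), in each case Gfap and Nefl higher and Nes and Vim lower. Over E12.5 to P0 all 6 were called, 4 higher and 2 lower, against 78.2% of all genes, 27.1% higher and 51% lower. For E15.5 to P0, the comparison added later, Gfap and Nefl were higher and Nes and Vim lower (4 of 6, against 50.2% of all genes, 19.5% higher and 30.7% lower). In each of these comparisons the libraries of the 2 stages could also be read for overlap. They did not overlap for 6 of 6 genes from E12.5 to E14 (70% of all genes), 6 from E14 to E15.5 (87.8%) and 4 from E15.5 to E17 (60.4%). The same held for 5 of 6 from E17 to P0 (61.9%), 6 from E12.5 to P0 (90.9%) and 5 from E15.5 to P0 (82%). A count near the share of all genes says nothing particular about the filament genes. Gfap is in all these counts, but it passed the filter through P0 alone. Its results in the F test and in comparisons with P0 were therefore built into its being tested.

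The median log2 change from E12.5 to P0 was 1.67 over the 6 genes, Gfap with the same limit among them, and -0.27 over all genes tested. Median-of-ratios scaling moved the median of all genes to -0.01 and quantile normalization to -0.05. Under both scalings each of the 6 genes kept its direction and its call from E12.5 to P0 and from E14 to E15.5.

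Each gene was set beside the genes with the most similar profile over the 10 libraries. Likeness was the root mean square difference of centred log2(TPM + 1) values, over 5425 other genes (mean 10 TPM or more). For Nes these were Ckap2 (0.080), Racgap1 (0.106) and Actl6a (0.107), the first 2 of which encode proteins of the dividing cell. For Vim they were Actl6a (0.109), Clic1 (0.139) and Ckap2 (0.144). Nes and Vim differed from each other by 0.098.

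The neuronal genes had other neighbours. Ina was nearest to Ss18l1 (0.070), which encodes a subunit of the neuronal BAF chromatin remodelling complex, and then to Dbndd1 (0.097) and Smarca2 (0.101). Nefl was nearest to Gucy1a3 (0.253), Mef2c (0.291), a transcription factor of cortical neurons, and Lsamp (0.317). Nefm was nearest to Ssbp2 (0.227), Nt5dc3 (0.255) and Tubb4a (0.262), a beta-tubulin. Between themselves, Nefm and Ina differed by 0.414, Nefl and Nefm by 0.742, and Nefl and Ina by 1.08. Gfap had no close neighbour among the genes compared: the nearest were Rasgrp2 (0.602), Osbpl1a (0.604) and Ncald (0.611). The mean of Gfap itself lay under the 10 TPM asked of those genes, so genes at its level were not compared.

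Proteins that carry or modify filaments were described from lists. Of 11 motors and adaptors known to move neurofilaments or vimentin, 8 rose, 2 fell and 1 did not pass from E12.5 to P0, with a median log2 change of 0.59. Of all genes tested 27.1% rose and 51% fell in this comparison, with a median of -0.27, and these shares also apply to the lists that follow. Dync1i1, an intermediate chain of dynein, rose by 4.47 (adjusted p 2.07e-11), and Kif5a, the neuronal kinesin heavy chain that carries neurofilaments, by 2.24 (adjusted p 1.12e-08). Kif1b had the lowest value (-0.41, adjusted p 0.0205) and Kif5b, the ubiquitous kinesin, was at -0.31 (adjusted p 0.0254). Under median-of-ratios scaling 9 rose and 0 fell, where 75.6% of all genes were called in either direction. The shares of all genes that rose and that fell are from the main fit only, here and for the lists that follow.

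Of 17 kinases and phosphatases that act on filament proteins, 7 rose, 7 fell and 3 did not pass, with a median of -0.06, and the share that fell was near that of all genes (9 rose and 6 fell under median-of-ratios scaling, median 0.21). The mitotic kinases that phosphorylate vimentin in division fell: Aurkb changed by -4.07 (adjusted p 7.04e-11), Plk1 by -3.88 (adjusted p 1.75e-09) and Cdk1 by -3.78 (adjusted p 2.77e-11). Camk2a, a calcium-dependent kinase of neurons, rose by 1.31 (adjusted p 1.07e-06), and Cdk5, which phosphorylates neurofilament tails, by 1.16 (adjusted p 1.31e-07).

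Of 12 transcription regulators known to act on filament genes, 10 fell and 2 rose from E12.5 to P0 (51% and 27.1% of all genes), with a median of -1.53, and the counts were the same under both other scalings. Pax6, Sox2 and Notch1 are also in the list of radial glia markers. Pax6, a regulator of radial glia, fell most (-3.12, adjusted p 3.91e-10). Sox2, which acts on the neural enhancer of Nes together with POU factors, fell by 1.81 (adjusted p 1.18e-09), while the POU factor Pou3f2 rose by 1.01 (adjusted p 2.78e-06). Stat3, an activator of Gfap in astrocytes, went from 20.8 to 9.15 TPM (-1.10, adjusted p 3.32e-05). It was at 19.4 TPM at E14 and 7.33 TPM at E15.5, and its change from E15.5 to P0 did not pass (0.29, adjusted p 0.133). Nfia, another regulator of Gfap, fell by 1.51 from E12.5 to P0 (adjusted p 1.20e-07). Of the other NFI factors listed, Nfib fell by 1.39 (adjusted p 9.28e-08) and Nfix rose by 0.53 (adjusted p 0.0132).

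Markers of the cells that hold these filaments moved as follows from E12.5 to P0. Of 10 neuron markers 9 rose and 1 fell (27.1% and 51% of all genes), with a median of 2.23, and Mapt, the microtubule protein tau, rose most (3.58, adjusted p 1.39e-10). From E14 to E15.5, the step at which Nefl and Nefm rose, 9 of the 10 rose and 1 did not pass (18.4% of all genes rose), with a median of 1.10. Of 10 axon and projection neuron markers, a list that shares Mapt, Gap43, Syt1 and Stmn2 with the neuron markers, 8 rose and 2 did not pass, with a median of 1.65. Its lowest value was that of Cntn2, an axonal adhesion protein (-0.24, adjusted p 0.204). Of 8 radial glia markers 4 rose and 4 fell, with a median of -0.80. Prom1, a membrane protein of progenitors, changed by -3.40 (adjusted p 1.23e-09), whereas Fabp7, the radial glial fatty acid binding protein, rose by 0.94 (adjusted p 0.000114) and Tnc, a matrix protein, by 2.24 (adjusted p 3.00e-07). Nes and Vim thus lay with the falling group of a list that went both ways.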

How the data were processed

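Polyadenylated RNA of 10 neocortex libraries, 2 at each of 5 stages, was measured by sequencing. Per the labels' protocols, RNA was extracted from a detergent lysate of frozen tissue after centrifugation, and made into stranded TruSeq libraries. The authors deposited TPM, 1 column per library, per the file headers. STAR, Subread and GRCm38.p5 are named, without roles or versions, in the submitters' processing notes. On the annotation, gene lengths, strand setting and choice of rows, nothing is given in the sources used here. In total the rows held 68.9% to 71.7% of the TPM of a library. Read depth is unknown, so no counting interval is given, and TPM being shares, a rise of abundant genes lowers the others.

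Columns were matched to libraries by title (0 columns without a sample). Genes with a mean under 1 TPM were left out (99), and stage means of log2(TPM + 1) were fitted to the other 6048 in limma (version 3.58.1, R version 4.3.3), with 5 residual degrees of freedom and a variance trend. Benjamini-Hochberg adjusted p-values, taken over all genes tested, were called under 0.05. TPM are not counts, and count models were left aside. Tables, promoter matches and figures were made in Python (3.11.15) using matplotlib (3.10.9), numpy (2.4.6), and pandas (2.3.3).

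The filament genes, the lists and the tests were chosen with earlier results of these data known. Named besides the filament genes were the 3 genes most like each by profile (names beginning with Gm or LOC or ending in Rik left out), the genes of highest and lowest change in each list, and list genes where a list is described. A list of turnover genes is not reported here. The alternatives tried were median-of-ratios scaling, quantile normalization, other pseudocounts (0.1 and 10 TPM), other filters (none, or a mean of 5 TPM), no variance trend, array weights, only the 4 libraries compared, a replicate block, each library left out, and, added after seeing the data, the fit without E12.5 and E14 and the comparison of E15.5 with P0.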

Additional observations from a re-analysis of the deposited data

How the results depend on the processing

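The calls of all 6 filament genes from E14 to E15.5, from E12.5 to P0 and over any stage held under each alternative run. From E12.5 to E14 the 1 call became 2 with a pseudocount of 0.1 TPM, with 10 TPM and with quantile normalization, and 4 with array weights and with only 4 libraries in the fit. The share of all genes called at this step was 8.73% in the main fit. It was 39.86% with array weights and 40.99% with only 4 libraries, so those counts rose along with the share of all genes. With a pseudocount of 0.1 TPM the share was below that of the main fit. It was 10.83% with a pseudocount of 10 TPM and 14.8% with quantile normalization. The share was below that of the main fit when any 1 library of E12.5 or E14 was left out. It was above that of the main fit when either E17 library was left out. Leaving out 1 library gave 0 to 3 calls at this step. It gave 0 without E12.5 replicate 1, E12.5 replicate 2 or E14 replicate 1, 3 without either E17 library and 2 without either P0 library. From E15.5 to E17 the 4 calls became 2 with array weights, 1 with only 4 libraries and 2 without the E12.5 and E14 libraries. Leaving out 1 library gave 2 to 4, with 2 without E15.5 replicate 1 or E15.5 replicate 2.

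No called change turned its direction. Among changes not called, leaving out 1 library moved Ina from E15.5 to E17 between -0.075 (without E17 replicate 1) and 0.13, and Nefm at that step between -0.18 and 0.091 (without E17 replicate 1), with 0.07 if E15.5 replicate 2 was dropped. Nefm from E17 to P0 lay between -0.098 (without P0 replicate 2) and 0.49, and from E15.5 to P0 between -0.14 (without P0 replicate 2) and 0.44. The cause was not tested.

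Under median-of-ratios scaling the sum of Nes and Vim was 724 TPM for E12.5, 655 for E14, 383 for E15.5 and 123 for P0, and that of Ina, Nefl and Nefm 94.5 for E12.5, 345 for E15.5 and 379 for P0. With quantile normalization these sums were 118 for Nes and Vim at P0, and 97.8 and 343 for the neuronal genes at E12.5 and E15.5. Replicate numbers are shared between stages, but the deviations of same-numbered libraries correlated above 0.1 in only 1 of 10 pairs of stages. The values farthest from 0 were negative, -0.375 for E12.5 with E17 and -0.281 for E12.5 with E14. The libraries were therefore not paired by number, but other links between libraries of different stages were not tested. With the replicate block the counts were 1, 6, 4, 4 and 6 for the 4 steps and E12.5 to P0, and 4 for E15.5 to P0 and 6 for any stage, as without it.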

Other observations

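Other filament genes of the same superfamily went both ways. Of a list of 14, the table held Prph, Lmna, Lmnb1 and Lmnb2, and from E12.5 to P0 1 rose, 2 fell and 1 did not pass. Of all genes tested 27.1% rose and 51% fell, so these counts are near those of all genes. Lmnb1, a lamin of the nuclear envelope, went from 407 to 105 TPM (-1.95, adjusted p 1.41e-09), and Lmna, of the same envelope, rose by 1.16 (adjusted p 1.57e-05). Prph, the peripherin of peripheral neurons, lay between 0.555 and 2.84 TPM in all libraries (-0.07, adjusted p 0.645). Within the span it fell by 0.96 from E14 to E15.5 (adjusted p 0.000106) and rose by 1.04 from E15.5 to P0 (adjusted p 7.03e-05).

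Linkers between filaments and other structures were high at E17, where the libraries differed. Dst, Macf1 and Plec summed to 43.3 and 72.9 TPM in the 2 E17 libraries, 26.3 to 27.0 TPM at E15.5 and 26.0 to 31.0 TPM at P0. Of 2 Cajal-Retzius markers, Calb2, a calcium-binding protein, rose by 0.97 from E12.5 to P0 (adjusted p 1.64e-05), while Reln, the secreted reelin, fell by 0.43 (adjusted p 0.0282). The fall of Reln was not called under median-of-ratios scaling or quantile normalization, nor without E12.5 replicate 2, P0 replicate 1 or P0 replicate 2. Of oligodendrocyte and microglia markers only Cnp and C1qb were tested. Cnp, a myelin-associated enzyme, rose by 0.57 (adjusted p 0.000245), and C1qb, a complement subunit of microglia, was at -0.11 (adjusted p 0.437).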
